A study of Mus musculus with 12 samples.

Results

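Amyloid beta, the peptide that forms plaques in Alzheimer's disease, is cleared partly by proteases. Most of them are zinc metallopeptidases that also cut signalling peptides such as insulin, endothelin, angiotensin and the enkephalins, and the remaining one described here acts through plasmin. The 9 genes described here encode such enzymes: Ide, Pitrm1, Mme, Ece1, Ece2, Thop1, Nln, Ace and Plat. They were listed by name as peptidases that cleave amyloid beta or make an enzyme that does. The list was made with earlier results of these data known, and all 9 were present among the 14881 genes of the deposited table.

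RNA was sequenced from 12 male APPswe mice, a strain with a mutant amyloid precursor protein transgene, aged 22 to 26 months. A viral vector, AAV1, was injected at 5 µL per mouse into the cisterna magna. Under the CMV promoter it carried mVEGF-C, the murine form of a growth factor of lymphatic vessels, or eGFP, a fluorescent protein. Each mouse also received weekly intraperitoneal doses of 40 mg/kg of mAducanumab (mAdu), which binds aggregated amyloid beta, or of a control immunoglobulin (mIgG). There were 4 groups of 3: mice 10 to 12 had mVEGF-C+mAdu, mice 7 to 9 had mVEGF-C+mIgG, mice 4 to 6 had eGFP+mAdu and mice 1 to 3 had eGFP+mIgG. All 12 mice were labelled as carrying the transgene and were given a virus and an antibody, so no group stands for an untreated brain, and the promoter of the transgene is not given in the sources used here. The comparisons ask whether the antibody, the vector or their combination moved the expression of these enzymes.

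The tissue was a whole right hippocampus per the series description, although the sample labels name the meninges. Neuronal markers were abundant, with a summed level of 2110 to 2392 CPM (counts scaled to a common library size) for 7 excitatory neuron genes, against 250 to 503 CPM for 8 genes of meningeal fibroblasts. Libraries held 23213612 to 29295266 counted reads. Some libraries stood apart. Among genes varying more than counting allows, the middle value of the group came from mouse 12 for 85.9% of genes, mouse 9 for 79.2%, mouse 6 for 81.9% and mouse 3 for 82.5%. For the other 8 mice that share was at most 12.8%. Whether mice 3, 6, 9 and 12 are separate animals, as labelled, or mixed material was not tested. If mixed, each group would hold 2 independent mice, and every SD, SE and p printed from all 12 libraries would be too small. App had 1342 CPM in mouse 5, 3716 CPM in mouse 6 and 4721 to 5507 CPM in the other 10 mice. The level in mouse 5 goes against its label as a transgenic mouse, so the genotype of mice 5 and 6, both in eGFP+mAdu, is in question. Mouse 6 lay between mouse 5 and mouse 4 of its group, which had 5487 CPM. Whether its App level reflects its own genotype or mixed material was not tested. Calls are therefore also given without mice 3, 6, 9 and 12, and the antibody change of Ide without mouse 5 or mouse 6.

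The enzymes fall into families that differ in how their catalytic zinc is held. Ide (insulin-degrading enzyme) and Pitrm1 (the presequence protease of mitochondria, which also degrades amyloid beta) are M16 peptidases with an inverted motif of histidine and glutamate. Mme (neprilysin), Ece1 and Ece2 (endothelin-converting enzymes) are M13 peptidases of the cell surface and of vesicles. Thop1 (thimet oligopeptidase) and Nln (neurolysin) are M3 peptidases that cut short neuropeptides, and Ace (angiotensin-converting enzyme) is an M2 peptidase with 2 catalytic domains. Plat (tissue plasminogen activator) is a serine protease with no such motif. It cleaves plasminogen to plasmin, which in turn degrades amyloid beta. The lines below set these motifs side by side, since they are what the families share and where they differ. Each gives the coding strand of a principal transcript (GENCODE M21, GRCm38) over the motif, with the motif's 15 bases in capitals and 15 bases on each side in lower case, beside the position of the capitals, all in coding exons.
Ide, chr19:37329136-37329150, minus strand: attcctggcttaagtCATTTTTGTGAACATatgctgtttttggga
Pitrm1, chr13:6553225-6553239, plus strand: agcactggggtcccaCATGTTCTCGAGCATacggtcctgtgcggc
Mme, chr3:63362021-63362035, plus strand: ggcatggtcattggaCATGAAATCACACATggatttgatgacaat
Ece1, chr4:137957172-137957186, plus strand: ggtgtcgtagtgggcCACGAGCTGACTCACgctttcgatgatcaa
Ece2, chr16:20643890-20643904, plus strand: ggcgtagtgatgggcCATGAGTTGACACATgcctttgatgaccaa
Thop1, chr10:81080576-81080590, plus strand: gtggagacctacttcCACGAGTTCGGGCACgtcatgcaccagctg
Nln, chr13:104046213-104046227, minus strand: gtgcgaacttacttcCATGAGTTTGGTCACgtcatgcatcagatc
Ace, amino-terminal domain, chr11:105972910-105972924, plus strand: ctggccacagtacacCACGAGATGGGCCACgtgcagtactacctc
Ace, carboxy-terminal domain, chr11:105985094-105985108, plus strand: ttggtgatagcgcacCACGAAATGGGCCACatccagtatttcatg

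Even the closest of these windows differed at many bases. Thop1 and Nln shared 77.8% of the 45 bases, Ece2 and Ece1 75.6%, Ece2 and Mme 73.3%, the windows of Ace 71.1% and Pitrm1 and Ide 51.1%. Some members also overlap other annotated genes. Ece2 shares 57.5% of its 5110 exon bases with a gene model on the same strand, Gm49333, which was not in the table. Pitrm1 shares 15.6% of its exon bases with Pfkp on the opposite strand and Ace shares 5.6% with an antisense gene model, Gm11651. The strand setting of the counting is not stated, so reads of Pitrm1 and Ace may include reads of these neighbours or lack reads over the shared bases. Strand cannot separate Ece2 from Gm49333. How reads over their shared bases were counted is not known here, so the level of Ece2 may be too high or too low. The other 6 genes share no exon base with another annotated gene.

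Per length of transcript, Ide had the highest median of the 9 and Mme the lowest. The median over the 12 mice, in CPM per kilobase of exon (RPKM), was 10.4 for Ide, 9.54 for Thop1, 7.29 for Pitrm1, 6.88 for Ece1, 6.60 for Plat, 5.25 for Ece2, 4.87 for Nln, 2.14 for Ace and 0.522 for Mme. The first rank of Ide depended on the group. Ide exceeded Thop1 in 9 of 12 mice, but in eGFP+mIgG the means were 9.47 RPKM for Ide and 9.57 RPKM for Thop1. Ide stood above 69.9% of all genes on this scale and Mme above 10.1%. Between neighbours in this order the ranges over mice overlapped, except between Thop1 and Pitrm1, between Nln and Ace and between Ace and Mme. Neprilysin, the enzyme most often named as a major amyloid-degrading peptidase of the brain, was thus represented by only 121 to 193 reads per library, against 1563 to 2851 reads for Ide. Fewer cells of a type and less RNA per cell cannot be told apart in such bulk tissue.

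**Figure D1:**
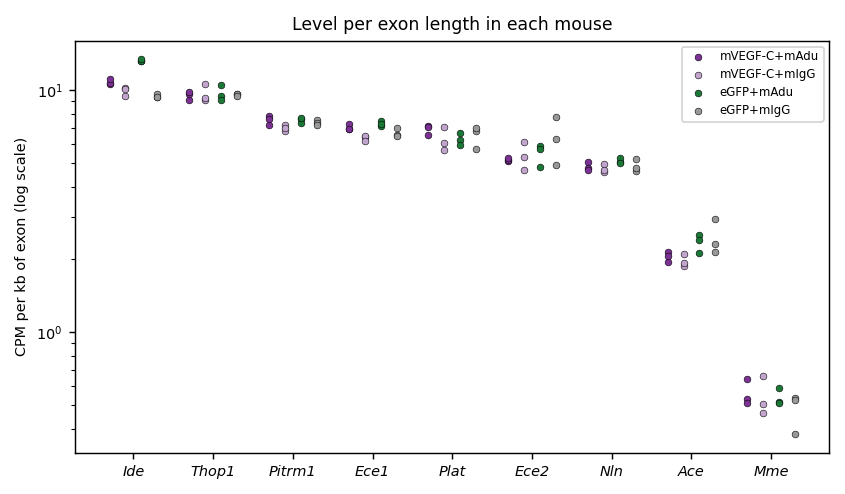
Level per transcript length of the 9 proteases in each of the 12 mice, in RPKM (CPM per kilobase of exon) on a log axis, with a point per mouse coloured by group and no error bars. Ide has the highest median at 10.4 RPKM and Mme the lowest at 0.522 RPKM.

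Ide was the one member that passed by edgeR. With the eGFP vector it was 1.40-fold higher in antibody mice than in mIgG mice, and with the mVEGF-C vector the antibody difference was smaller. In mice 4, 5 and 6 (eGFP+mAdu) Ide lay at 98.8, 99.2 and 100.4 CPM, against 70.4, 72.7 and 70.2 CPM in mice 1, 2 and 3 (eGFP+mIgG). In mice 10, 11 and 12 (mVEGF-C+mAdu) it lay at 79.6, 80.5 and 83.1 CPM, against 71.1, 76.7 and 75.7 CPM in mice 7, 8 and 9 (mVEGF-C+mIgG). The eGFP+mAdu mice were thus clear of all others, the mVEGF-C+mAdu mice stood above both mIgG groups, and the mIgG groups overlapped. Of all genes, 15.4% had groups that did not overlap in the eGFP antibody contrast and 16.5% in the mVEGF-C one.

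The mean ± SD (n = 3 each) was 81.0 ± 1.81 CPM for mVEGF-C+mAdu, 74.5 ± 2.97 CPM for mVEGF-C+mIgG, 99.5 ± 0.862 CPM for eGFP+mAdu and 71.1 ± 1.34 CPM for eGFP+mIgG. The SD within groups on the log2 scale was 0.036, and 5.09% of all genes had a smaller one; libraries 3, 6, 9 and 12 enter this SD, which mixed material would shrink. The antibody contrast with the eGFP vector gave a log2 change of 0.48 (SE 0.038, 95% interval 0.40 to 0.57) with an adjusted p of 1.67e-05 (edgeR, quasi-likelihood, Benjamini-Hochberg, as for each adjusted p below unless another tool is named). This was the smallest p among the 14881 genes, of which 0.0336% passed in that contrast at the adjusted threshold of 0.05 and 0.0202% passed as higher. The change was 0.49 without mouse 5 and 0.48 without mouse 6, and mouse 4, the eGFP+mAdu mouse with App in the usual range, had 98.8 CPM of Ide. The call held in each case, but each of these fits kept the other mouse in question, so neither removes the doubt over genotype. Over the 12 omissions of 1 mouse the adjusted p of this contrast was at most 0.000376. Without mice 3, 6, 9 and 12 the log2 change was 0.47 and the adjusted p 0.0576, in a design with 2 mice per group.

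With the mVEGF-C vector the antibody contrast of Ide was 0.12 on the log2 scale (SE 0.038, interval 0.04 to 0.20). The adjusted p was 0.196, so the difference did not pass, in a contrast where 0.0672% of genes passed as higher. The groups did not overlap, as for 16.5% of all genes. The difference between the antibody effects, the interaction of vector and antibody, was -0.36 (SE 0.054, interval -0.48 to -0.25; adjusted p = 0.0405). Of all genes 0.0134% passed this test, 0.00672% in each direction. The interaction kept its sign in every omission of 1 mouse, between -0.40 and -0.34, but its adjusted p rose above 0.05 in 11 of 12 of them, all but that without mouse 7. Without mice 3, 6, 9 and 12 it was -0.36 with an adjusted p of 1.00.

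Among mice given the antibody, Ide was lower with mVEGF-C than with eGFP by -0.30 on the log2 scale (SE 0.038, adjusted p = 0.0130), where 0.047% of genes passed, 0.0269% as higher and 0.0202% as lower. Among mice given mIgG, the vector contrast of Ide was 0.07 (SE 0.039, interval -0.01 to 0.15, adjusted p = 0.681), where 0.0269% of genes passed as higher. The combined treatment against eGFP+mIgG gave 0.19 (SE 0.038, adjusted p = 0.0258) in a contrast with 2.18% of genes called, 1.19% as higher and 0.988% as lower. The vector contrast among antibody mice lost its call without mouse 4, 6, 11 or 12 (adjusted p up to 0.104), at log2 values of -0.31 to -0.28 over all 12 omissions. The combined contrast lost its call without mouse 1, 3, 10 or 12 (adjusted p up to 0.125), at 0.17 to 0.21. These contrasts share groups, so their values are not independent of each other.

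The summed level of 8 choroid plexus markers, of which none was at 0, was lower with mVEGF-C than with eGFP under either antibody. It ran from 48.1 to 49.4 CPM in mVEGF-C+mAdu, from 55.8 to 63.6 CPM in mVEGF-C+mIgG, from 80.1 to 96.0 CPM in eGFP+mAdu and from 64.8 to 109 CPM in eGFP+mIgG. One marker, Ttr, weighed heavily in this sum, with means of 16.6, 25.2, 56.2 and 51.6 CPM in the same order. Over the 8 markers the median log2 change with the vector was -0.61 under mAdu (2 positive) and -0.05 under mIgG (3 positive). The covariate used was not this sum but the mean of the markers' log2 CPM, each centred on its own mean. With that covariate the antibody change of Ide with the eGFP vector was 0.47 (adjusted p = 6.23e-05). With the same covariate the other 5 contrasts of Ide kept their sign and none passed. They included 0.24 for the combination (adjusted p = 0.311) and -0.23 for the vector among antibody mice (adjusted p = 0.809). The interaction was -0.31 (adjusted p = 0.941). The SE of the combination was 0.061 with this covariate and 0.038 without it.

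**Figure D2:**
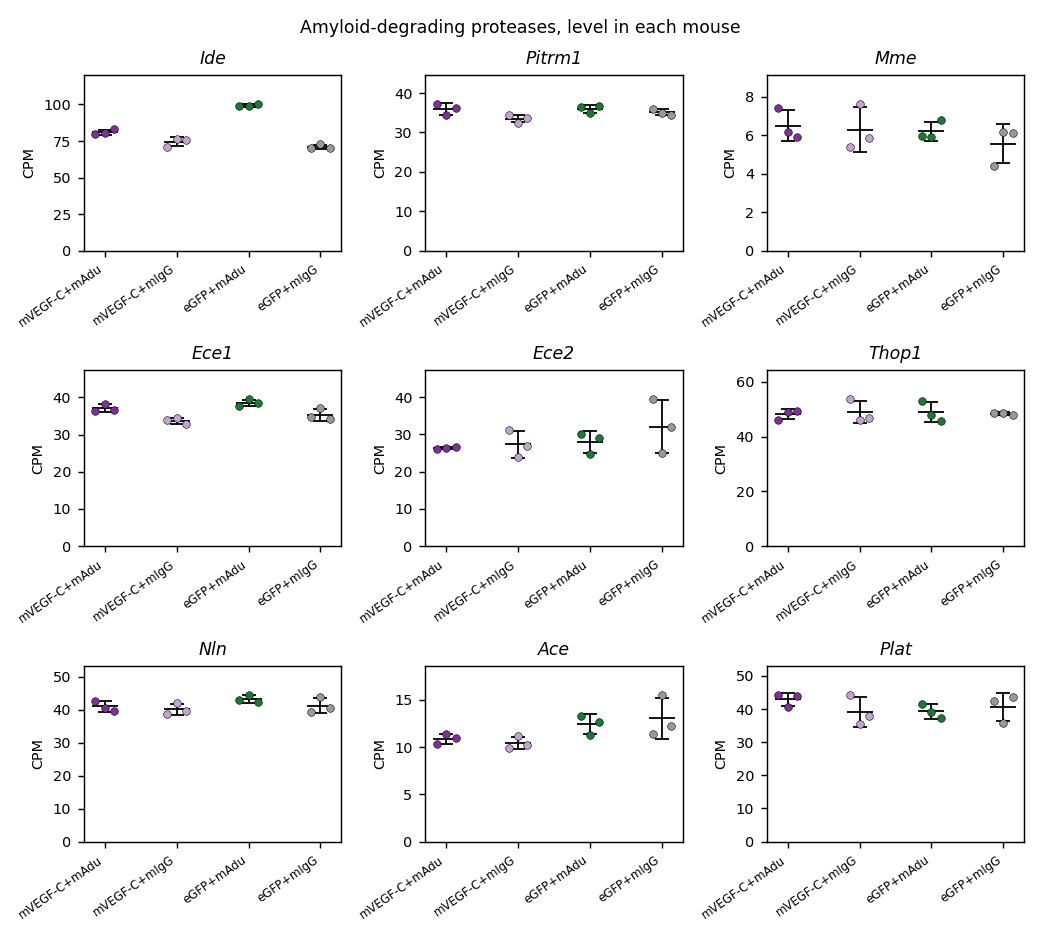
Level of each of the 9 proteases in each mouse, in CPM, with the groups ordered mVEGF-C+mAdu, mVEGF-C+mIgG, eGFP+mAdu and eGFP+mIgG and points for mice, a long line at each group mean and bars of 1 SD (n = 3). The eGFP+mAdu mice lie at 98.8 to 100.4 CPM for Ide, above all 9 other mice, and among the other 8 genes a group stands clear of the others for Pitrm1 alone (mVEGF-C+mIgG, up to 34.30 CPM, against 34.32 CPM or more elsewhere). Of all genes, 16.5% had groups that did not overlap in the antibody contrast with mVEGF-C and 12.4% in the vector contrast with mIgG.

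Pitrm1, the other M16 enzyme, gave no call by edgeR. It lay at 37.3, 34.3 and 36.3 CPM in mice 10 to 12 (mVEGF-C+mAdu), against 34.3, 32.5 and 33.5 CPM in mice 7 to 9 (mVEGF-C+mIgG). With the eGFP vector the values were 36.4, 34.9 and 36.8 CPM in mice 4 to 6 (eGFP+mAdu), against 36.0, 34.9 and 34.5 CPM in mice 1 to 3 (eGFP+mIgG). The mVEGF-C+mIgG mice were the lowest 3, by a margin of 34.30 CPM below 34.32 CPM in mouse 11. Groups that did not overlap were found for 16.5% of all genes in the antibody contrast with mVEGF-C. The share was 12.4% in the vector contrast with mIgG. With mVEGF-C the log2 difference was 0.11 (SE 0.049, adjusted p = 0.385). Its largest value over the 12 mice was 1.15 times its smallest.

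The M13 family gave no call by edgeR. Ece1, which converts the precursor of endothelin, lay at 37.7, 39.5 and 38.5 CPM in eGFP+mAdu, against 34.6, 37.1 and 34.2 CPM in eGFP+mIgG. Under mVEGF-C it lay at 36.5, 38.3 and 36.5 CPM with mAdu, against 33.9, 34.4 and 32.7 CPM with mIgG. In both vectors the antibody mice were all above their mIgG controls, with log2 differences of 0.13 (SE 0.048, interval 0.03 to 0.23, adjusted p = 0.441) and 0.14 (SE 0.049, interval 0.04 to 0.24, adjusted p = 0.236). Neither passed over all genes; 15.4% of all genes had groups that did not overlap in the eGFP antibody contrast and 16.5% in the mVEGF-C one. By limma-voom with quality weights, a test that called 507 and 1234 genes there, both passed (adjusted p 0.0408 and 0.0239).

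Ece2, an endothelin-converting enzyme of neurons and neuroendocrine cells, varied widely between mice of the same group, with a within-group SD of 0.20 on the log2 scale that exceeded that of 82.9% of genes. It lay at 26.2, 26.4 and 26.7 CPM in mVEGF-C+mAdu, against 39.4, 25.0 and 32.0 CPM in eGFP+mIgG. Mouse 1 set much of that difference, since the log2 change of -0.29 (SE 0.127, adjusted p = 0.210) was -0.12 without it. Leaving out mouse 2 instead gave -0.43 with an adjusted p of 0.0448, and limma-voom gave -0.28 with an adjusted p of 0.0317, in a contrast where it called 2660 genes. The mVEGF-C+mIgG mice had 31.2, 24.0 and 27.0 CPM and the eGFP+mAdu mice 30.1, 24.6 and 29.2 CPM. Within 3 of the 4 groups the middle mouse was mouse 3, 6, 9 or 12.

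Mme could not be resolved to the same degree. It lay at 7.41, 6.14 and 5.92 CPM in mVEGF-C+mAdu, 5.38, 7.63 and 5.87 CPM with mVEGF-C+mIgG, 5.96, 5.90 and 6.78 CPM in eGFP+mAdu and 4.39, 6.18 and 6.09 CPM in eGFP+mIgG. All groups overlapped. The antibody difference with the eGFP vector was 0.16 (SE 0.152) with an interval of -0.16 to 0.49, which still contains the size of the change seen for Ide.

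The M3 peptidases gave no call and differed little. Thop1 ran from 45.9 to 53.6 CPM over all 12 mice, with group means of 48.2 ± 1.76 CPM in mVEGF-C+mAdu, 48.9 ± 4.09 CPM in mVEGF-C+mIgG, 48.9 ± 3.61 CPM in eGFP+mAdu and 48.4 ± 0.585 CPM in eGFP+mIgG (SD, n = 3 each). Its antibody difference with the eGFP vector was 0.02, with an interval of -0.11 to 0.15 that does not reach the change of Ide. Nln ran from 38.8 to 44.5 CPM, and its antibody difference with the eGFP vector was 0.07 (SE 0.052, interval -0.04 to 0.18). Neither passed in any of the 6 contrasts, and their groups overlapped in each.

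Ace, which cleaves angiotensin I and also amyloid beta, had lower values with mVEGF-C but no call by edgeR. Mice 7 to 9 (mVEGF-C+mIgG) had 9.94, 11.1 and 10.2 CPM, against 11.4, 15.5 and 12.2 CPM in mice 1 to 3 (eGFP+mIgG). The mVEGF-C+mAdu mice had 10.3, 11.4 and 10.9 CPM and the eGFP+mAdu mice 13.3, 11.3 and 12.7 CPM. The vector difference with mIgG was -0.31 on the log2 scale (SE 0.106, interval -0.54 to -0.09) and that of the combined treatment -0.25 (SE 0.106). The groups did not overlap in either, as for 12.4% and 27.2% of all genes, and neither passed (adjusted p = 0.554 and 0.196). Limma-voom called the first (-0.27, adjusted p = 0.0453), as it did 937 genes. Mouse 2 had the highest level in the series. Without it these differences were smaller in size, at -0.17 and -0.12. In every group the middle mouse for Ace was mouse 3, 6, 9 or 12. The same held in 1 of 4 groups for Ide and for Thop1. It held in 2 of 4 groups for each of Pitrm1, Mme, Ece1, Nln and Plat.

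Plat lay at 44.2, 40.7 and 43.9 CPM in mVEGF-C+mAdu, 44.1, 35.5 and 37.9 CPM with mVEGF-C+mIgG, 41.6, 39.0 and 37.2 CPM in eGFP+mAdu and 42.3, 35.8 and 43.5 CPM in eGFP+mIgG. The groups overlapped in every contrast, and the log2 differences ran from -0.05 to 0.18 with no call.

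Across the 9 members, edgeR called a member in 4 contrasts, and it was Ide alone each time; limma-voom called 2, 2, 2, 1, 1 and 1 members in the contrasts in the order that follows. Without Ide, the log2 differences ran from -0.29 to 0.23 for the combination, from -0.21 to 0.16 for the antibody with eGFP and from -0.05 to 0.14 for the antibody with mVEGF-C. They ran from -0.31 to 0.19 for the vector with mIgG, from -0.19 to 0.13 for the vector with mAdu and from -0.12 to 0.18 for the interaction. The median over all 9 stayed between -0.05 and 0.06, against a median of all genes between -0.00 and 0.00. In the 2 contrasts with no member called by edgeR, 0.208% (antibody with mVEGF-C) and 0.0403% (vector with mIgG) of all genes passed. There 3 members and 1 member had an unadjusted p under 0.05, DESeq2 called 0 in both, and limma-voom called 2 and 1. Over all genes, 12.7% and 7.91% had an unadjusted p under 0.05 there, and limma-voom called 1234 and 937 genes.

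**Figure D3:**
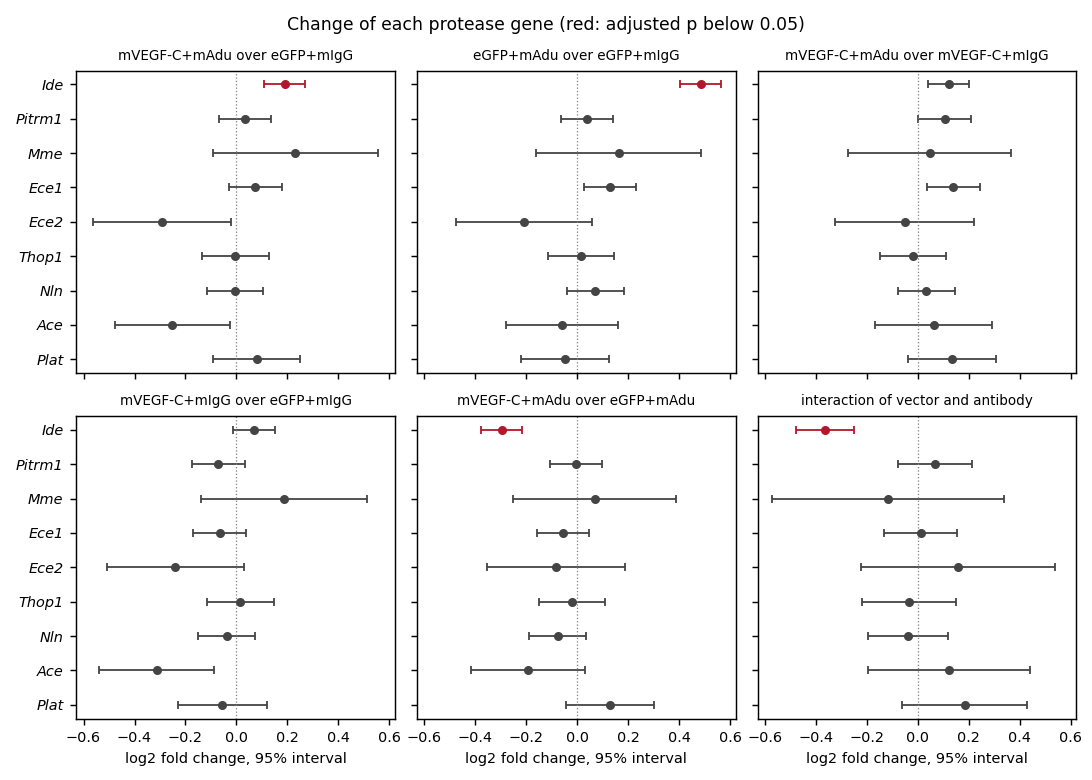
Log2 changes (x) of the 9 proteases (rows) in the 6 contrasts (panels) with 95% intervals from edgeR, calls in red. Ide has intervals clear of 0 in all contrasts but the vector with mIgG (-0.01 to 0.15). Among them are the antibody with eGFP (0.40 to 0.57) and the interaction (-0.48 to -0.25). Pitrm1, Ece1, Ece2 and Ace also have intervals clear of 0 in some panels, with no call. The changes of the other 8 genes in the eGFP antibody contrast run from -0.21 to 0.16.

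Ide (ENSMUSG00000056999) lies on chromosome 19 of mm10 (37268743 to 37337852, minus strand), and edgeR called 1 of its near neighbours, Btaf1, in 3 of the same contrasts. Of 17 measured genes whose bodies lie within 1 Mb, Btaf1, which removes the TATA-binding protein from DNA, lies 256.0 kb away on the plus strand. Btaf1 stood at 110.2, 111.1 and 115.5 CPM in eGFP+mAdu, against 84.9, 80.3 and 81.8 CPM in eGFP+mIgG. In mVEGF-C+mAdu it stood at 97.8, 95.1 and 95.4 CPM, against 89.4, 86.7 and 89.7 CPM in mVEGF-C+mIgG. The order of the 4 groups was thus that of Ide. Btaf1 changed by 0.45 with the antibody under eGFP (SE 0.037, adjusted p = 1.67e-05), by 0.22 with the combination (adjusted p = 0.0101) and by -0.22 with the vector under mAdu (adjusted p = 0.0325). Its interaction of -0.33 (SE 0.052) did not pass (adjusted p = 0.0545). The first of these held in all 12 omissions of 1 mouse; the combination lost its call without mouse 10 or 12, and the vector contrast without 7 of the 12 mice (mice 3, 4, 6, 9, 10, 11 and 12). Without mice 3, 6, 9 and 12 together, the antibody change of Btaf1 was 0.43 with an adjusted p of 0.0760.

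The genes between these loci did not pass. March5, an E3 ubiquitin ligase of mitochondria, and Cpeb3, a regulator of translation, were singled out after their values were seen, for their position. With the antibody under eGFP, March5 (46.6 kb from Ide) differed by 0.12 (SE 0.047, adjusted p = 0.475) and Cpeb3 (60.1 kb) by -0.06 (SE 0.054, adjusted p = 0.781). Fgfbp3, which binds fibroblast growth factors, and Myof, a membrane repair protein, were also singled out after their values were seen. Fgfbp3 (349.1 kb) had 5.23, 5.86 and 6.17 CPM in eGFP+mAdu, above the other 9 mice, whose highest was 4.75 CPM. Its antibody difference with eGFP was 0.32 (SE 0.104, adjusted p = 0.377) and its vector difference with mAdu -0.38 (SE 0.105, adjusted p = 0.138). Myof had 5.02, 4.79 and 4.87 CPM in eGFP+mAdu, against 6.57, 6.46 and 6.95 CPM in eGFP+mIgG, a difference of -0.45 (SE 0.116, adjusted p = 0.234). Neither gene passed by edgeR. Kif11, a mitotic kinesin on the other side of Ide at 38.6 kb, differed by 0.01. The median over the 17 neighbours was 0.01 in that contrast. Ppp1r3c, a glycogen-targeting subunit of protein phosphatase 1 at 532.1 kb, was the other neighbour called by edgeR, partly in other contrasts. Ppp1r3c averaged 93.4 ± 1.78 CPM in mVEGF-C+mAdu, 76.6 ± 3.16 CPM in mVEGF-C+mIgG, 78.4 ± 2.73 CPM in eGFP+mAdu and 66.5 ± 5.49 CPM in eGFP+mIgG (SD, n = 3 each). It rose by 0.49 with the combination (adjusted p = 0.00069) and by 0.29 with the antibody under mVEGF-C (adjusted p = 0.0389); the second call was lost in 7 of the 12 omissions. Over the 17 neighbours and 6 contrasts, 21 of 102 tests (20.6%) had an unadjusted p under 0.05, against 11.9% of all tests. The contrasts share groups, so these tests are not independent. Of the 102 tests edgeR called 5, DESeq2 8 and limma-voom 23.

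**Figure D4:**
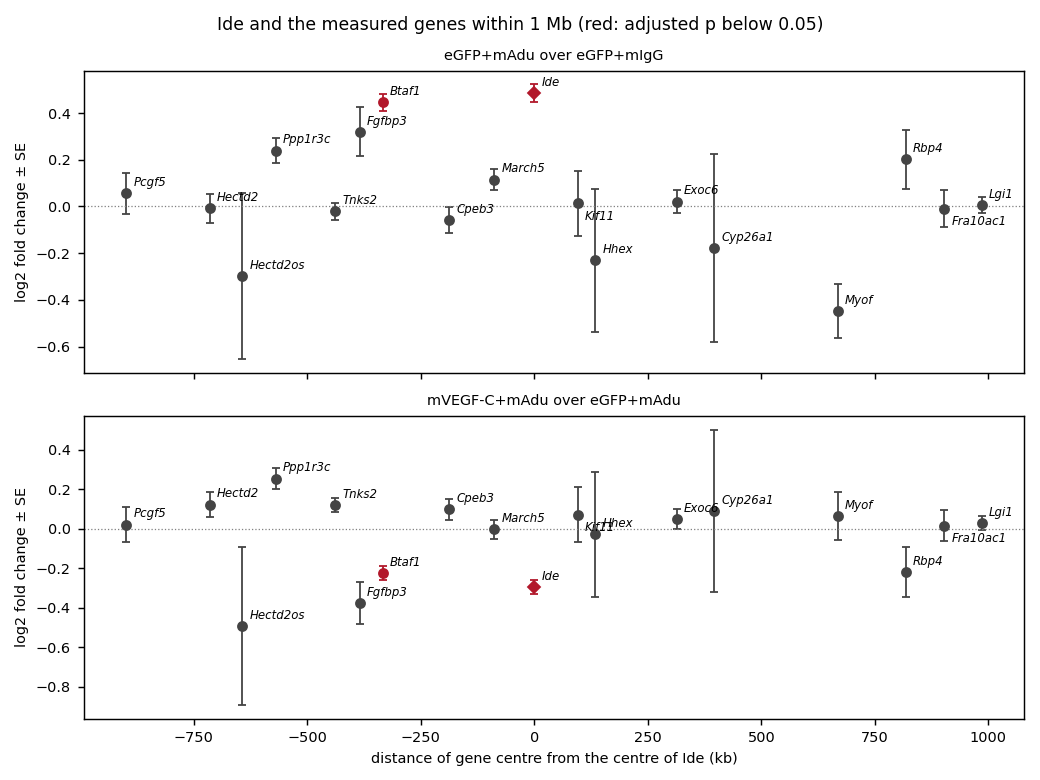
Log2 changes (y, bars ± SE from edgeR) of Ide and the 17 measured genes within 1 Mb against the distance between gene centres in kb (x), for the antibody with the eGFP vector above and for the vector with mAdu below, with calls in red. In the upper panel Ide (0.48) and Btaf1 (0.45) lie apart from March5 (0.12) and Cpeb3 (-0.06), which lie between them.

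Over the 6 contrasts, edgeR called 5 of 168 tests of neighbours of Ece1 and 2 of 138 near Ece2. Near Mme and Thop1 it called 1 of 54 and 3 of 498, against 0.42% of all tests. The calls lay in the combined treatment, where 2.18% of all genes passed, and in the antibody with mVEGF-C, where 0.208% passed. Each was lost in 3 or more omissions of 1 mouse. In the combination, those called higher were Gmps near Mme (0.16) and Klhl24 near Ece2 (0.24). Those called lower were Thpo near Ece2 (-1.25), C1qb, C1qc and C1qa near Ece1 (-0.44, -0.41 and -0.43), and Sbno2, Cirbp and Ankrd24 near Thop1 (-0.49, -0.22 and -0.26). C1qc and C1qa, which encode complement chains of microglia, were also lower with the antibody under mVEGF-C (-0.53 and -0.55). Of the calls in the combination, C1qa was lost in 8 of the 12 omissions of 1 mouse, Gmps, Thpo, Cirbp and Ankrd24 in 7, C1qb in 5, C1qc in 4, and Klhl24 and Sbno2 in 3. With the antibody under mVEGF-C, C1qa was lost in 7 and C1qc in 4. Around Thop1, 68 of 83 measured neighbours had a negative difference in the combined contrast, with a median of -0.07, and 15 a positive one, against 48.9% positive over all genes. Thop1 itself stood at -0.00. Of the 66 genes near Pitrm1, Nln, Ace and Plat, edgeR called 0 in any contrast. Over the 6 contrasts, 15 tests near Ace, 13 near Nln, 0 near Pitrm1 and 11 near Plat had an unadjusted p under 0.05. DESeq2 called 2, both near Plat, and limma-voom called 5, 5, 0 and 10 in that order of genes.

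By Pearson's r of log2 CPM over the 12 mice, given as a description, the gene most like Ide was Btaf1 (r = 0.958), followed by Cdkl4 (0.915), Cbln1 (0.911), Lrig1 (0.895) and Wwox (0.872). The genes most like the other members were Hmces and Kcnc4 for Ece1 (0.959 and 0.908), B3galt2 and Slc6a15 for Pitrm1 (0.951 and 0.928), and Zmym3 and Zfp692 for Ece2 (0.932 and 0.928). For Mme they were Omg and Ell2 (0.924 and 0.892), for Plat Ptcd3 and Scn2b (0.920 and 0.919), and for Ace Taok2 and Nid1 (0.917 and 0.900). For Thop1 they were Uqcrq and Pmm1 (0.909 and 0.902) and for Nln Dok5 and Gab2 (0.906 and 0.884). Among the members, Ide was most like Ece1 (0.764), and Mme and Ece2 ran against each other (-0.745). These points share the library, its scaling and the group structure.

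Enzymes and peptides around the members had few calls. Of the 10 measured genes among 16 listed further amyloid-degrading proteases, such as matrix metalloproteases and cathepsins, edgeR called 0 in any of the 6 contrasts. Of their 60 gene-by-contrast tests 5 had an unadjusted p under 0.05, and DESeq2 called 2 and limma-voom 4. The same count of 0 held for 7 measured family relatives, 16 mitochondrial proteases, 8 insulin and IGF genes and 10 peptide substrates. In these 4 lists, in that order, 3, 6, 5 and 13 tests had an unadjusted p under 0.05, DESeq2 called 0, 0, 0 and 1, and limma-voom called 3, 6, 5 and 9. Over all genes and the 6 contrasts, 11.9% of tests had an unadjusted p under 0.05 and 0.42% passed.

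In the systems that the members act on, edgeR called 3 genes, 1 in each system, in contrasts where it called 2.18% (combination) and 0.208% (antibody with mVEGF-C) of all genes. Serpini1 (neuroserpin, the inhibitor of tissue plasminogen activator in neurons) averaged 469 ± 22.3 CPM in mVEGF-C+mAdu and 400.0 ± 18.9 CPM in eGFP+mIgG (SD, n = 3 each), a rise of 0.23 (SE 0.043, adjusted p = 0.0181), its sole call among 8 measured genes of the plasminogen system. Ednrb, a receptor for endothelin, averaged 76.3 ± 2.20 CPM and 63.3 ± 3.74 CPM in the same groups, a rise of 0.27 (SE 0.051, adjusted p = 0.0181), its sole call among 5 genes of the endothelin system. Agt, the precursor of the angiotensins, averaged 18.6 ± 0.732 CPM with mVEGF-C+mAdu and 13.8 ± 0.321 CPM with mVEGF-C+mIgG, a rise of 0.43 (SE 0.074, adjusted p = 0.0299), its sole call among 7 genes of the angiotensin and kinin systems. In eGFP+mAdu and eGFP+mIgG Agt stood at 20.5 ± 1.54 and 18.2 ± 1.40 CPM, so the mVEGF-C+mIgG mice were the low ones. The medians of these 3 lists in the contrasts named were -0.10, 0.09 and 0.06. Over the 6 contrasts, an unadjusted p under 0.05 was found for 29.2% of 48 tests in the plasminogen list, 40.0% of 30 in the endothelin list and 26.2% of 42 in the angiotensin and kinin list, against 11.9% of all tests. The lists were chosen with earlier results of these data known, and the 6 contrasts share groups. These tests are thus not independent, and the shares do not test whether the lists stand out. DESeq2 called 3, 1 and 2 of these tests and limma-voom 10, 4 and 5. Serpini1 lost its call without mouse 1, 3, 10 or 12, Ednrb without mouse 1, 10 or 12, and Agt without mouse 3, 6, 8, 9, 10, 11 or 12.

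Markers of other cell types were followed beside the members. Endothelial markers, which bear on Ace and Ece1, summed to 99.4 to 125 CPM in mVEGF-C+mAdu, 113 to 115 CPM in mVEGF-C+mIgG, 100.4 to 123 CPM in eGFP+mAdu and 103 to 106 CPM in eGFP+mIgG over 8 genes. Markers of border macrophages, 3 of 5 listed, summed to 6.39 to 7.26, 6.03 to 6.67, 5.12 to 10.2 and 9.58 to 10.9 CPM in the same order. Meningeal fibroblast markers (8 of 8) summed to 268 to 274, 249.8 to 313, 283 to 503 and 368 to 389 CPM in that order. Their median was -0.40 with the vector under mIgG and -0.57 with the combination, with 0 of 8 positive in both, the contrasts in which Ace did not overlap. It was also -0.46 with the vector under mAdu, with 0 of 8 positive, and there the groups of Ace overlapped. The part of these shifts in the values of Ace and Ece1 was not tested. Beside Ide, 9 striatal markers of 10 listed summed to 119.5 to 136 CPM in mVEGF-C+mAdu, 127 to 155 CPM with mVEGF-C+mIgG, 140.2 to 151 CPM in eGFP+mAdu and 132 to 136 CPM in eGFP+mIgG. Their median was 0.24 for the antibody with eGFP, -0.48 for the vector with mAdu (0 of 9 positive) and -0.45 for the interaction. Microglial markers (7 of 7) had medians of 0.05, -0.16 and -0.20 in those contrasts, with 0 of 7 positive in the last 2. With the combination, the antibody under mVEGF-C and the vector under mIgG, the striatal medians were -0.13, -0.28 and 0.15. The microglial medians there were -0.11, -0.18 and 0.10, and Ide changed by 0.19, 0.12 and 0.07. The microglial sum ran from 370.2 to 379.6 CPM in mVEGF-C+mAdu and from 386.7 to 445 CPM in eGFP+mAdu. None of these markers was at 0, and their part in the values of Ide was not tested. Among marker genes, by edgeR, Ttr of the choroid plexus (-1.62), Tagln of smooth muscle (-1.09), Foxj1 of ependyma (-0.55) and Aldh1l1 of astrocytes (-0.21) were lower with the combination, and Ttr was lower by -1.76 with the vector under mAdu. Mobp of oligodendrocytes was higher with the vector under mIgG (0.44) and lower with the antibody under mVEGF-C (-0.34). Omitting 1 mouse lost the combination call of Aldh1l1 in 7 of 12 cases, of Foxj1 in 6, of Tagln in 4 and of Ttr in 1. The call of Ttr with the vector under mAdu was lost in 4, and those of Mobp in 3 (vector) and 7 (antibody). The median of the 7 astrocyte markers with the combination was -0.02, with 2 positive.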

How the data were processed

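The authors deposited unnormalized counts of reads for each gene in 12 libraries. The submitters' processing notes name mm10, STAR, featureCounts, Subread, edgeR, Trim Galore and FastQC; tool versions, strand setting and annotation: not given in the sources used here. Symbols (14797 of 14881 identifiers), coordinates and exon lengths came from GENCODE M21.

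Counts were fitted with edgeR 4.0.16 (R 4.3.3): TMM scaling, filterByExpr (which removed no gene), 1 mean per group, all 12 libraries, quasi-likelihood tests, two-sided, Benjamini-Hochberg adjustment over 14881 genes and a threshold of 0.05. CPM is relative to the TMM-scaled total. The common biological coefficient of variation was 5.16%; Mme and Ace had the fewest reads, so counting error weighs most there. Alternatives used DESeq2 1.42.0 and limma 3.58.1. The tests were tried on simulated counts. Libraries are separate mice per the labels.

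The members and gene lists were chosen with earlier results of these data known. Named were all members, neighbours within 1 Mb or list genes that passed, and the genes most like each member.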

Additional observations from a re-analysis of the deposited data

Results flagged for a closer look

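Ide was flagged because its antibody effect differed between the vectors by a test of the difference itself. The interaction of vector and antibody was -0.36 on the log2 scale (SE 0.054, adjusted p = 0.0405, edgeR). This call was lost in 11 of 12 omissions of 1 mouse. The antibody contrast was 0.12 with mVEGF-C and 0.48 with eGFP, and mAdu mice were above the range of their mIgG controls in 3 of 3 cases with either vector. Of all genes, 16.5% and 15.4% had groups that did not overlap in these contrasts, in that order. The genotype of mice 5 and 6, in eGFP+mAdu, is in question. Groups of 3 are too small for a check of single outlying mice.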

How the results depend on the processing

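No paired analysis was possible because mouse numbers run from 1 to 12 and no groups share one. The antibody change of Ide with eGFP passed in all alternatives except the fit without mice 3, 6, 9 and 12, which has 2 mice per group (log2 0.474, adjusted p = 0.0576, 0 members called). Omitting 1 mouse at a time gave 0.478 to 0.505, and 1 member each time. For the combination, Ide was 0.241 with the choroid plexus covariate and 0.164 without those 4 mice, with 0 members called in both; omissions gave 0.171 to 0.207 and 0 to 2 members. For the vector with mAdu it was -0.230 and -0.310 under the same settings, with 0 members, and -0.314 to -0.282 with 0 to 1 member over omissions. The interaction was -0.308 and -0.360, with 0 members, and -0.396 to -0.343 with 0 to 1 member. The antibody change of Ide with mVEGF-C passed by limma-voom alone (0.122, adjusted p = 0.0257) and ran from 0.0886 to 0.142 over omissions; the vector change with mIgG ran from 0.0476 to 0.101.

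Limma-voom called 2 members in the combination (with Ece2), 2 in each antibody contrast (with Ece1) and 1 in the vector contrast with mIgG (Ace). For the other members, 889 alternative values kept their call with no change of sign beyond 1 SE, 10 changed sign by 1 SE or more with no call, and 5 gained a call. No called value changed sign. The causes were not tested. Counts of all genes depended on the test: in the order of combination, antibody with eGFP, antibody with mVEGF-C, vector with mIgG, vector with mAdu and interaction, edgeR called 324, 5, 31, 6, 7 and 2, DESeq2 452, 47, 126, 20, 119 and 8, and limma-voom 2660, 507, 1234, 937, 970 and 220. With the choroid plexus covariate the counts were 5, 4, 0, 6, 0 and 0, and without mice 3, 6, 9 and 12 they were 2, 2, 0, 2, 0 and 0; fits of only the groups compared gave 610, 7, 6, 2 and 62. Omitting 1 mouse gave 12 to 594, 4 to 35, 2 to 138, 1 to 52, 0 to 110 and 0 to 36.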
